A study of Bos taurus with 8 samples.

Results

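The transglutaminase family was taken as the 7 genes TGM1 to TGM7, matched by exact symbol in the deposited count table. Of the 7, 6 had a row among the 33132 genes of the table, and TGM4 was not analysed here. The table comes from RNA sequencing of rumen, the fermentation chamber of the ruminant stomach, in 4 newborn male calves and 4 adult steers, which are castrated males. All 8 animals were angus crosses with 1 library each, so stage of life and castration change together between the groups, and the labels name neither age in days, diet nor batch. The series was made to find genes and regulators behind postnatal rumen growth, and its only comparison is steer against calf. Library totals ran from 42322022 to 54449684 counts.

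Transglutaminases are calcium-dependent enzymes that join proteins through bonds between glutamine and lysine side chains. TGM1, TGM3 and TGM5 are known from stratified squamous epithelia, where they weld proteins such as periplakin, loricrin and small proline-rich proteins into the cornified envelope of the outermost cells. TGM1 is anchored to the membrane, TGM3 is a soluble proenzyme that is cut by a protease, and loss of TGM5 in humans causes peeling of the outer skin. TGM2, or tissue transglutaminase, is widespread in endothelium, smooth muscle and matrix-producing cells, TGM6 is known from neurons, and TGM7 is little studied. The rumen is lined by a keratinised squamous epithelium over connective tissue and a smooth muscle coat, so whole tissue can hold both kinds of enzyme.

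Levels are given as CPM, a gene's counts relative to the TMM-scaled total of its library. TGM1 and TGM3 were the most abundant members in calves, and TGM5 was the only one of the 5 tested members called different between the groups. In steers TGM5 was 31.5-fold higher, while the changes of TGM1, TGM3 and TGM2 were not called. The call threshold was a Benjamini-Hochberg adjusted p under 0.05 in edgeR's quasi-likelihood test over 16326 genes. So 1 of 5 tested members was called, and it was higher in steers. Of all tested genes 16.9% were called, and 7.7% of all tested genes were called higher, so a count of 1 member is near the background. Without any overlap of calves and steers there was likewise 1 of the 5, against 23.3% of all tested genes.

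**Figure D1:**
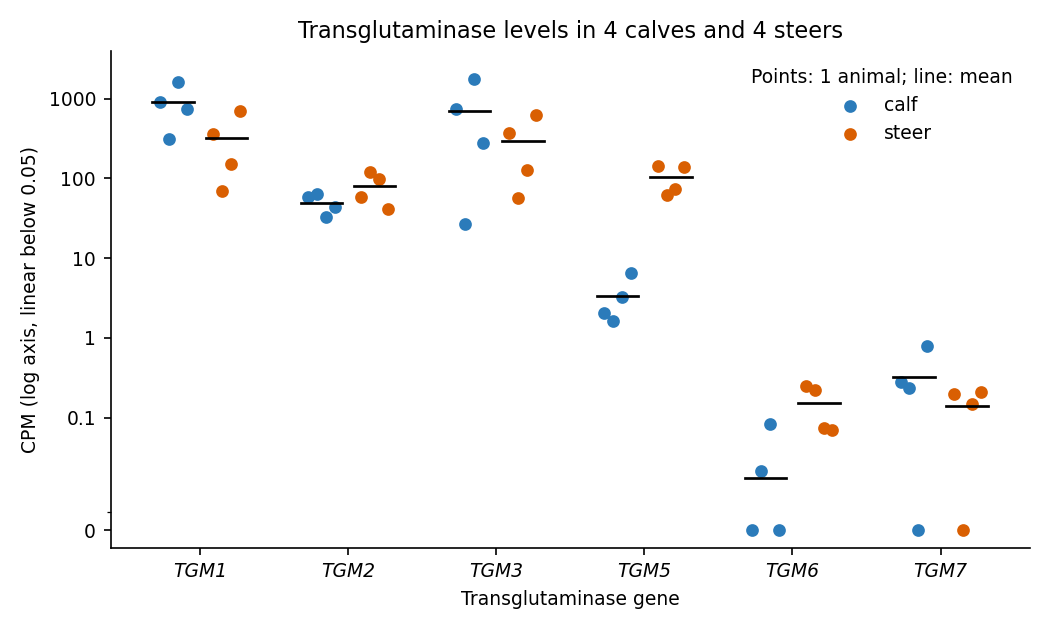
CPM of each transglutaminase (log axis, linear below 0.05) in each of 4 calves and 4 steers, with 1 point per animal and a line at the mean. Among tested members TGM5 alone has all 4 steers (62.8 to 144.8 CPM) above all 4 calves (1.64 to 6.48 CPM), and TGM3 spreads from 26.9 to 1760 CPM among calves.

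TGM5 lies on chromosome 21 from 54998020 to 55031962, on the minus strand. These and the positions below are the count table's own, and its assembly is not named in these sources. Calves 1 to 4 had 2.05, 1.64, 3.22 and 6.48 CPM of TGM5. Steers 1 to 4 had 144.8, 62.8, 74.3 and 139.8 CPM. Every steer was far above every calf, and the lowest steer was several times the highest calf. These levels rest on 88 to 310 counts in each calf and 2256 to 7972 in each steer, so the low level in calves was well covered. The group means were 3.35 ± 2.195 and 105.4 ± 42.9 CPM (SD, n = 4 per group). The log2 change, steer minus calf, was 4.98 ± 0.52 (SE, adjusted p = 0.000413 in edgeR), higher in 4 of 4 steers. Of the 1257 genes called higher in steers, 61 including TGM5 rose by at least as much. The call held in all 19 alternatives tried, with log2 changes of 4.58 to 5.53 and adjusted p up to 0.00237.

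TGM1, the membrane-anchored enzyme of differentiating keratinocytes, lies on chromosome 10 from 20901998 to 20916718 on the plus strand. Its level was 917, 311.6, 1638 and 734 CPM in calves 1 to 4. In steers 1 to 4 it was 358, 69.4, 149.7 and 706 CPM. Steer 4 thus lay close to calf 4, and steer 1 lay above calf 2, so the groups overlapped. The means were 900.2 ± 553 CPM in calves and 321 ± 284 CPM in steers. The log2 change of -1.49 ± 0.70 did not pass (adjusted p = 0.177). It passed when steer 4 was left out (-2.22, adjusted p = 0.0465), and without calf 2 and steer 4 (-2.51, adjusted p = 0.0217). Its adjusted p over all 19 alternatives ran from 0.0217 to 0.723.

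TGM3, the soluble epidermal enzyme, lies on chromosome 13 from 52793534 to 52836111 on the minus strand. Calves 1 to 4 had 753, 26.9, 1760 and 278 CPM. Steers 1 to 4 had 373, 56.5, 127.6 and 625 CPM. The highest calf held 65.4 times the level of the lowest, against 11.1 times among steers, and both the highest and the lowest of the 8 values were in calves. The means were 704 ± 765 and 296 ± 258 CPM, and the log2 change of -1.25 ± 1.03 did not pass (adjusted p = 0.449). With 1 animal left out it ran from -1.92 (without steer 4) to -0.26 (without calf 3).

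TGM1 and TGM3 took the same order of animals within each group. Calf 3 was highest and calf 2 lowest for both, and steer 4 was highest and steer 2 lowest for both. In steers the log2 ratio of TGM1 to TGM3 counts kept to a narrow range, with values of -0.06, 0.30, 0.23 and 0.18 in steers 1 to 4. In calves 1 to 4 it was 0.28, 3.53, -0.10 and 1.40. Calf 2 therefore held far more TGM1 than TGM3, and the other calves less so. The SD of this ratio was 1.63 in calves and 0.16 in steers, and whether the spread differs was not tested.

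TGM2, the tissue enzyme, lies on chromosome 13 from 67002550 to 67037025 on the minus strand. Its level was 59.1, 63.6, 32.8 and 43.7 CPM in calves 1 to 4. In steers 1 to 4 it was 59.02, 120.7, 99.8 and 41.5 CPM. Steers 2 and 3 were above all calves, and steers 1 and 4 lay among them. The log2 change of 0.69 ± 0.35 did not pass (adjusted p = 0.212), and with 1 animal left out it ran from 0.44 to 0.91. TGM2 was high where TGM1 and TGM3 were low: steer 2 had the highest level of TGM2 among steers and calf 3 the lowest among calves.

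**Figure D2:**
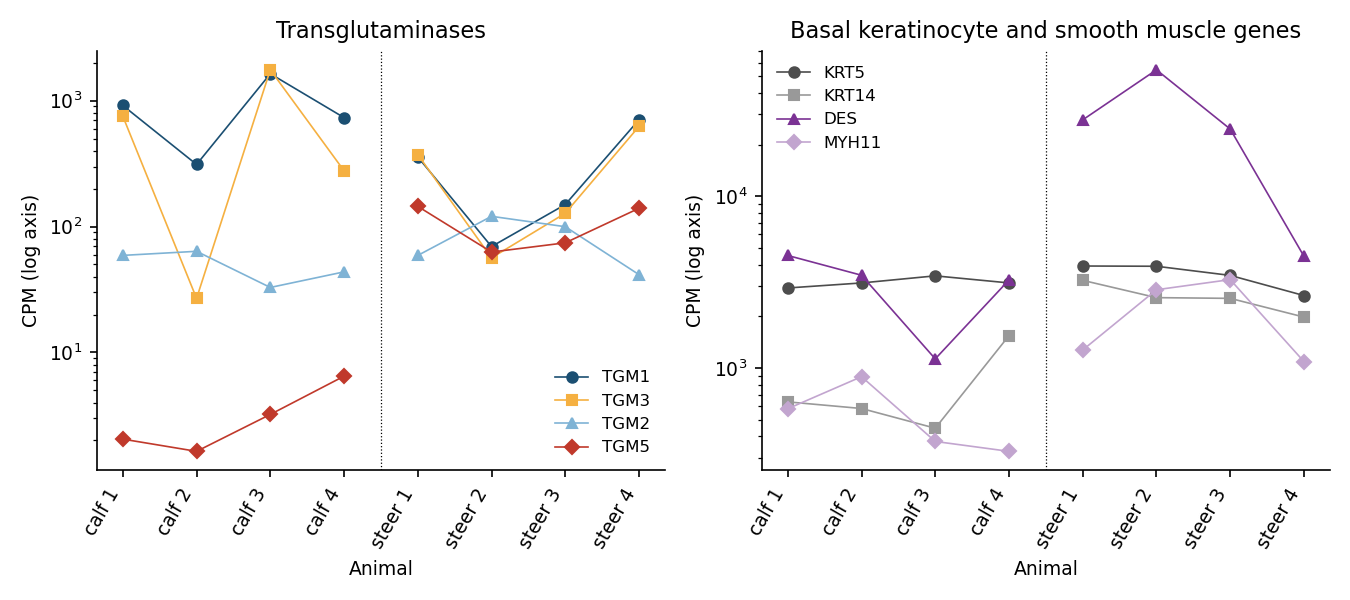
CPM on a log axis in each animal, joined within a group for reading only, for TGM1, TGM3, TGM2 and TGM5 (left) and for KRT5, KRT14, DES and MYH11 (right). TGM1 and TGM3 peak in calf 3 and steer 4, where DES, a smooth muscle gene, is lowest of its group (1132 and 4481 CPM). MYH11, another smooth muscle gene, is lowest in calf 4 (327.6 CPM, against 374.1 CPM in calf 3) and steer 4 (1092 CPM). KRT5 stays between 2646 and 3932 CPM.

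The remaining members were near the limit of detection. TGM6 (chromosome 13, 52698791 to 52728411, minus strand) had 0, 2, 4 and 0 counts in calves 1 to 4 and 10, 8, 4 and 4 counts in steers 1 to 4. It did not pass the filter on low counts and was not tested. TGM7 (chromosome 21, 55035880 to 55062392, minus strand) had 12, 14, 0 and 38 counts in calves and 8, 0, 8 and 12 in steers. At this depth its log2 change of -1.18 ± 1.09 did not pass (adjusted p = 0.506). Each mate of a pair counts once here, so fewer fragments than counts stand behind these values. In all libraries TGM6 and TGM7 stayed below 1 CPM.

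Which member dominates was read from each library's level per length. The coding lengths are not in the sources used here, so CPM was divided by the length of the counted span, which includes introns and runs from 14.7 kb for TGM1 to 42.6 kb for TGM3. On that scale TGM1 ranked first in 4 of 4 calves and 4 of 4 steers. In calves 1 to 4 it made up 76.2%, 89.3%, 72.4% and 86.2% of the family sum, and in steers 62.2%, 41.4%, 55.7% and 70.6%. The lowest calf (72.4%) was just above the highest steer (70.6%). TGM3 was second in 3 of 4 calves and in 3 of 4 steers, and TGM2 took that place in calf 2 and steer 2. TGM3 held 15.6 ± 10.8% in calves and 18.02 ± 5.02% in steers. TGM2 held 3.17 ± 3.16% and 13.2 ± 13.2%, with 30.7% in steer 2 against 1.77% in steer 4. Its mean share was 1.64% without calf 2 and 7.34% without steer 2. The share of TGM5 went from 0.0617% to 0.33% in calves to 6.06% to 16.2% in steers, with no overlap. No test was run on these shares.

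The order depends on the length used. Dividing by a span that includes introns lowers genes with long introns, which can favour TGM1, whose span is the shortest of the family. Neither that scale nor CPM uses coding length. In CPM without length, TGM1 was first in 3 of 4 calves and 2 of 4 steers. TGM3 was then first in calf 3 and steer 1, and TGM2 in steer 2. The mean share of TGM1 was 61.7 ± 13.7% in calves and 35.1 ± 10.1% in steers on this scale, and that of TGM3 31.9 ± 19.8% and 31.9 ± 10.8%. TGM2 held 6.06 ± 6.60% and 17.5 ± 16.6%. TGM1 was above TGM3 in 3 of 4 calves and 3 of 4 steers on this scale, and in 4 of 4 of each per kb of counted span. The order of TGM1 and TGM3 thus turned on the scale in calf 3 and steer 1, and that of TGM1 and TGM2 in steer 2. In neither group can TGM1 and TGM3 be ranked beyond the choice of length. TGM5 held 9.24% to 20.3% of the family CPM in steers and at most 0.61% in calves.

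**Figure D3:**
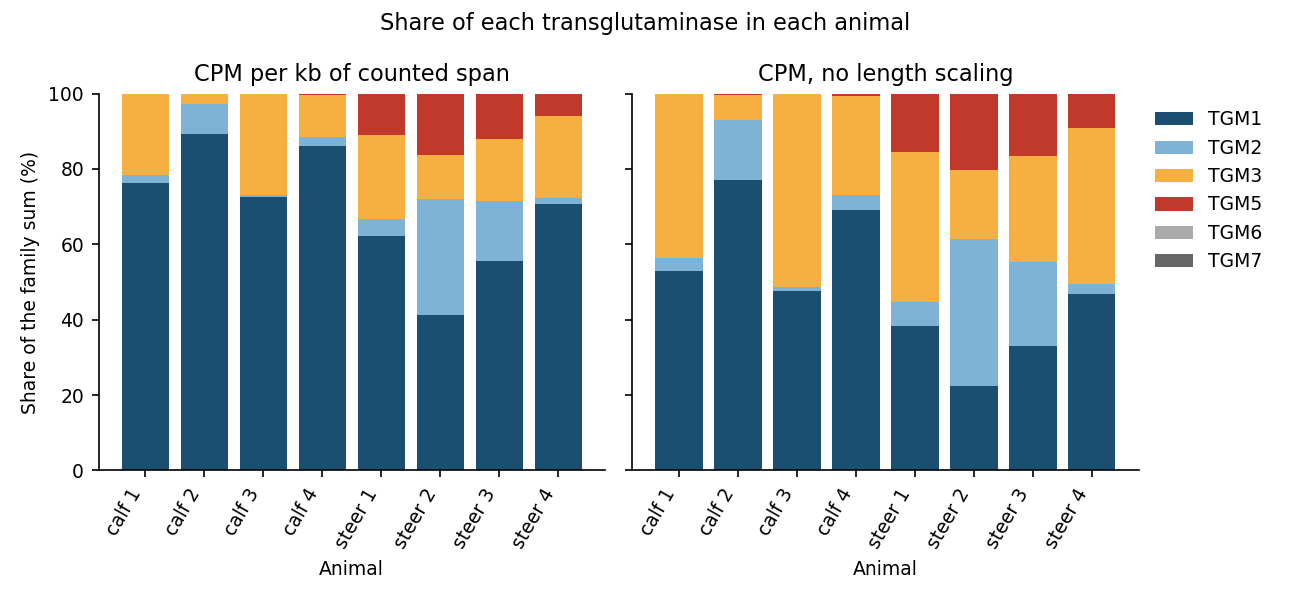
Share (%) of each transglutaminase in the family sum of each animal, from CPM per kb of counted span (left) and from CPM without length (right). TGM1 is the largest part in all 8 animals on the left and in 5 of 8 on the right, and TGM5 is visible in the 4 steers only.

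In steers the levels of TGM2, TGM3 and TGM5 per kb of counted span overlapped. TGM5 was at 3.11 ± 1.26 CPM per kb, TGM2 at 2.33 ± 1.06 and TGM3 at 6.94 ± 6.06. TGM5 was above TGM2 in 2 of 4 steers and above TGM3 in 1 of 4, and these neighbours in the order do not differ beyond their spread. In calves TGM5 was at 0.0986 ± 0.0647 CPM per kb, below TGM1, TGM2 and TGM3 in 4 of 4 animals. The summed CPM of the family was 1731, 404, 3434 and 1063 in calves 1 to 4 and 935, 309.6, 452 and 1513 in steers 1 to 4. The sums overlapped between the groups.

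Whether members moved differently was tested on the log2 ratio of 2 members within each library, which does not depend on how libraries are scaled. All 10 pairs of the 5 tested members were compared by exact permutation of the 8 libraries, two-sided. The groups did not overlap for the 4 pairs that hold TGM5 and for none of the other 6. The log2 ratio of TGM1 to TGM5 went from 8.04 ± 1.03 in calves to 1.20 ± 0.90 in steers, that of TGM3 to TGM5 from 6.76 ± 2.43 to 1.04 ± 0.98, and that of TGM2 to TGM5 from 4.05 ± 1.19 to -0.42 ± 1.3. That of TGM5 to TGM7 went from 3.94 ± 2.22 to 9.63 ± 1.03. Each of the 4 pairs reached an exact p of 0.0286, the smallest that 4 against 4 animals can give. Their adjusted p over the 10 pairs was 0.0714, which misses the threshold. With only 4 of 10 pairs at the smallest p none can pass, so this miss decides nothing. All 4 pairs share the TGM5 values and are not separate results. For TGM1 against TGM3 the change was -1.12 (exact p = 0.286, adjusted 0.476), and for TGM1 against TGM2 it was -2.37 (exact p = 0.2, adjusted 0.4).

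Marker genes of the other cell types of the rumen wall were measured in the same libraries, and in whole tissue fewer cells of a type and less RNA per cell cannot be told apart. The basal-cell keratin KRT5 was at 2929 to 3446 CPM in calves and 2646 to 3932 CPM in steers, and KRT14 at 803 ± 502 and 2587 ± 516 CPM, so squamous epithelium was present in all 8 libraries. The summed basal keratinocyte markers were at 11520 to 16970 CPM in calves and 8142 to 15710 CPM in steers, with overlap. Of the 7 tested markers of that list 1 was called higher and 1 lower, beside 7.7% and 9.16% of all tested genes (median log2 change 0.34). The summed markers of suprabasal mucosal keratinocytes, the upper layers in which TGM1, TGM3 and TGM5 are known to act, were at 36260 to 88920 CPM in calves and 287.3 to 1348 CPM in steers, with no overlap. Of the 4 tested markers of that list 3 were called lower and none higher, beside 9.16% and 7.7% of all tested genes. Its median log2 change was -4.61. IVL and DSG3 were at 0 in all libraries. The span of IVL is wholly shared, so it could not be measured, and why DSG3 had no count was not examined. The part of the suprabasal markers in the changes of the transglutaminases and of the envelope genes was not tested. DES, the muscle filament desmin, was at 4528, 3474, 1132 and 3261 CPM in calves and 27910, 54580, 24670 and 4481 CPM in steers. The summed level of 9 smooth muscle markers was 5460 to 17090 CPM in calves and 10220 to 104700 CPM in steers, highest in steer 2 and lowest in calf 3. None of the 9 markers was at 0 in all libraries. Of 8 tested 5 were called higher and 1 lower, beside 7.7% and 9.16% of all tested genes. Steer 4, with the lowest muscle level of the steers, had the highest TGM1 and TGM3 of the steers and the lowest TGM2.

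With smooth muscle level (the markers' mean) as a covariate, the log2 change of TGM5 was 5.50 (adjusted p = 0.000474). That of TGM1 was -0.33 (adjusted p = 0.723), and those of TGM2 and TGM3 changed sign, to -0.16 (adjusted p = 0.688) and 0.33 (adjusted p = 0.873). Over all 19 alternatives the adjusted p ran from 0.0544 to 0.688 for TGM2 and from 0.0772 to 0.899 for TGM3. Per 1000 CPM of KRT5, TGM5 was at 0.523 to 2.07 CPM in calves and 16.02 to 52.8 CPM in steers, again with no overlap. On the same scale TGM1 was at 99.4 to 475 in calves and 17.7 to 267 in steers, and TGM3 at 8.59 to 511 and 14.4 to 236, both with overlap. Summed endothelial markers, another known site of TGM2, were at 261 to 547 CPM in calves and 185 to 267 CPM in steers, and fibroblast markers at 1650 to 4802 and 576 to 1362 CPM. Of 8 tested smooth muscle markers 5 were themselves called higher in steers and 1 lower, beside 7.7% and 9.16% of all tested genes. The covariate fit therefore cannot separate muscle level from group. The part of cell makeup in the levels of TGM1, TGM2 and TGM3 was not tested.

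**Figure D4:**
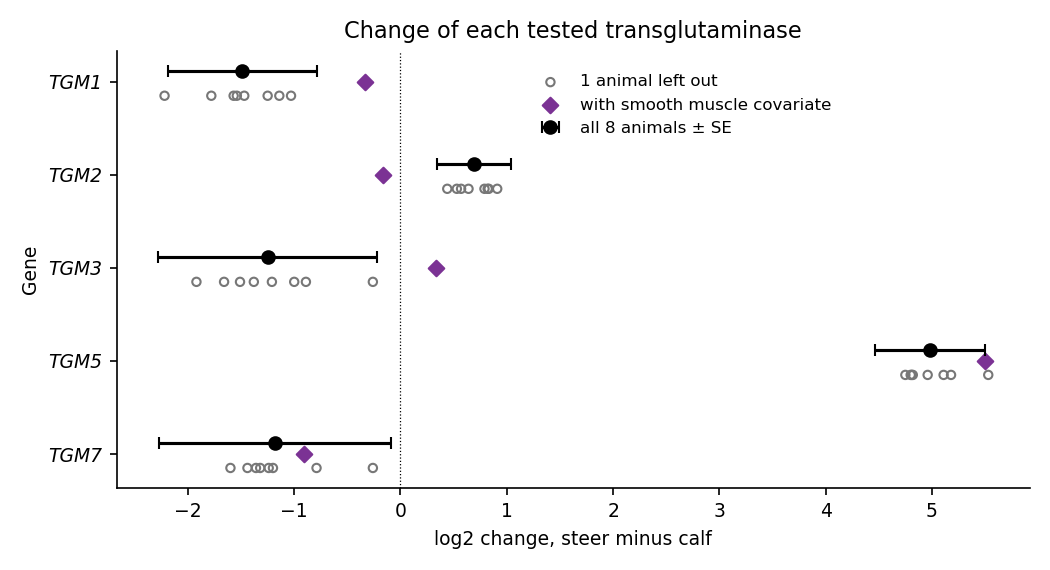
Log2 change, steer minus calf, of each tested transglutaminase: black points with SE from all 8 animals, open circles with 1 animal left out, diamonds with smooth muscle level as covariate. TGM5 stays between 4.75 and 5.53 in all of these, and TGM1, TGM2 and TGM3 move to -0.33, -0.16 and 0.33 with the covariate.

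In all, 2 relatives by descent were looked at beside the family. F13A1, the A subunit of coagulation factor XIII and itself a transglutaminase, was at 1.40 ± 0.40 CPM in calves and 0.88 ± 0.50 CPM in steers (log2 change -0.66 ± 0.46, adjusted p = 0.369). EPB42, a red cell membrane protein related to the family that lacks enzyme activity, had at most 4 counts in any library. TGM5 and TGM7 lie side by side on chromosome 21, 3.9 kb apart, and TGM6 and TGM3 on chromosome 13, 65.1 kb apart. TGM6 and TGM7 stayed near 0 also in libraries where the gene beside them was abundant, TGM3 in all 8 and TGM5 in the 4 steers. LCMT2, the next gene past TGM7, was at 3.06 ± 0.65 and 3.68 ± 1.3 CPM in calves and steers. The neighbours of TGM1, RABGGTA and TINF2, were at 95.1 ± 32.2 and 8.79 ± 0.63 CPM in calves and 54.7 ± 14.8 and 8.86 ± 1.31 CPM in steers. RPRD1B, next to TGM2, was at 19.7 ± 6.13 and 25.9 ± 8.003 CPM. The other nearest genes, LOC112449428, LOC100848770, LOC783835 and LOC104973823, stayed below 1 CPM in every library.

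The genes most like each member were those with the smallest root mean square difference in log2 CPM over the 8 libraries, each gene centred on its mean, among 9291 genes of at least 10 CPM in a group. These are descriptions over 8 animals. Nearest to TGM1 were SULT2B1, a cholesterol sulfotransferase of squamous epithelium (0.26 log2 units), PGLYRP4, a peptidoglycan recognition protein (0.36), and TMEM54 (0.39). SULT2B1 was at 142.4, 36.8, 225.8 and 76.3 CPM in calves and 50.1, 7.29, 14.8 and 64.5 CPM in steers, in the same order of animals as TGM1 in calves and with steer 4 highest and steer 2 lowest, though 20.8% of its span is shared with another gene. Nearest to TGM3 was PI3, the protease inhibitor elafin, which is itself a transglutaminase substrate (0.71), ahead of FUT6 (0.84) and the lysozyme LYZ1 (0.89). FUT6 and LYZ1 belong to families of close copies, so their shares of reads are uncertain. TGM1 differed from TGM3 by 1.15, with 15 of the 9291 genes nearer to TGM3 than TGM1 was, and 1048 nearer to TGM1 than TGM3 was.

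TGM2 was matched more closely than any other member, by RPS6KA2, a ribosomal S6 kinase (0.09), TUSC1 (0.14) and SYDE1 (0.17). The distance is not scaled to a gene's range, and TGM2 varied least of the members compared. Its smaller distances therefore do not show a tighter match. RPS6KA2 was at 16.8 ± 4.33 CPM in calves and 25.3 ± 10.4 CPM in steers. Nearest to TGM5 were CD207, the langerin of Langerhans cells (0.46), KRT6B, a stress keratin with near-identical relatives (0.61), and BDH1, a ketone body enzyme (0.71). CD207 was at 0.067 to 0.505 CPM in calves and 7.67 to 18.2 CPM in steers. KRT6B was at 2.89 to 3.83 CPM in calves and 64.5 to 375.6 CPM in steers. BDH1 was at 14.9 to 45.6 CPM in calves and 299.7 to 777.5 CPM in steers. The 3 genes were chosen for a profile like that of TGM5, so the gap between their groups comes with the choice.

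Known substrates of these enzymes were compared with the family through a list of cornified envelope proteins. Of 44 listed symbols 22 had a row, 15 were tested, none was called higher and 8 were called lower. Of the small proline-rich proteins listed only SPRR4 had a row, and of the listed LCE genes only LCE1B and LCE3C. None of these was tested, so the counts do not cover those families. Of all tested genes 9.16% were called lower. The list's median log2 change was -2.35, against 0.04 over all tested genes. PPL, periplakin, chosen for mention after its values were seen, fell by 2.35 ± 0.33 on the log2 scale, from 1106 to 217 CPM (adjusted p = 0.0018). LOR, loricrin, had no count in any steer and 0.418 to 160 CPM in calves, most of it in calf 2. With a floor of 3 counts per steer library it was at least 634-fold lower, and at least 46.9-fold lower when calf 2 was left out. Its call (adjusted p = 0.0358) was lost with limma-voom, with no filter, and when calf 1 or any of steers 1, 2 and 3 was left out (adjusted p 0.0574 to 0.0689). CRNN, cornulin, was at 24.9 to 117.5 CPM in calves and at 0 in 3 of 4 steers. IVL, involucrin, was listed at 0, and its span lies wholly within another gene, so it could not be measured. The other called genes of the list, named after their values were seen, were EVPL, RPTN, S100A11, SBSN and CNFN. The call of EVPL was lost when calf 1, calf 3, calf 4, steer 2 or steer 3 was left out (-1.26 to -1.02), and with the smooth muscle covariate (-1.02). With that covariate 1 gene of the list was called higher and 7 lower, beside 7.55% and 8.22% of all tested genes.

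**Figure D5:**
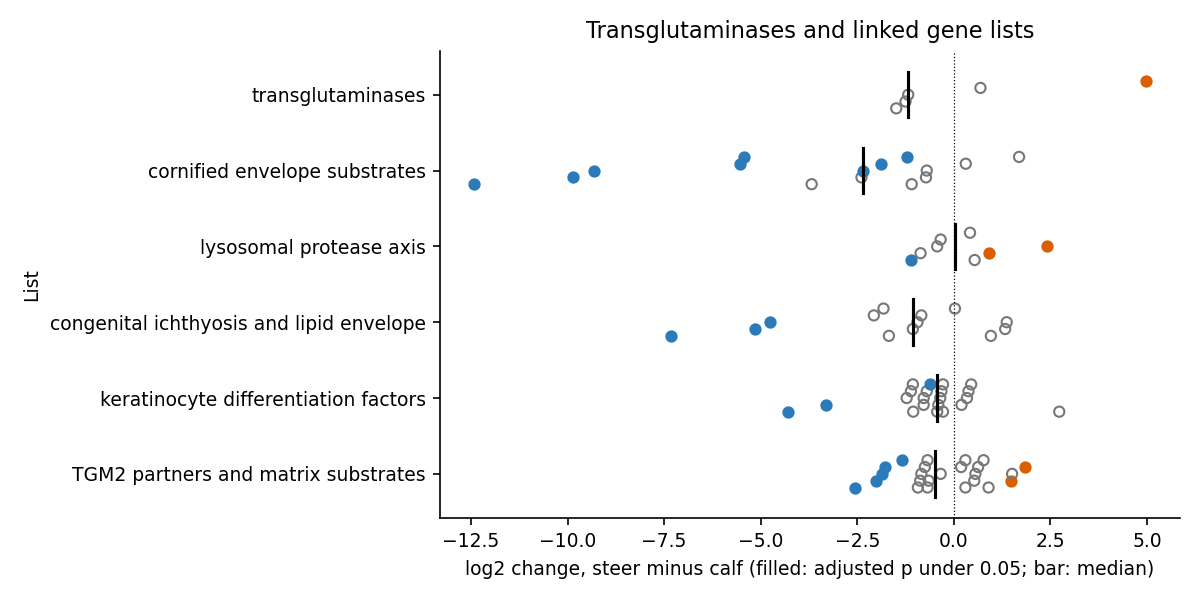
Log2 change, steer minus calf, of tested transglutaminases and of tested genes in 5 linked lists, with filled points for adjusted p under 0.05 and a bar at each list's median. LOR and ASPRV1, with no count in steers, are drawn at the bound set by 3 counts per library. TGM5 (4.98) is the only filled point among the transglutaminases, and all 8 filled points of the envelope substrates are below 0.

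Proteases and inhibitors reported to act on transglutaminases formed a list of cystatin, legumain, cathepsins and calpains. In it 2 of 8 tested genes were called higher and 1 lower, beside 7.7% and 9.16% of all tested genes (median log2 change 0.04, as over all tested genes). CST6, cystatin M/E, which inhibits legumain and cathepsins upstream of TGM3 processing, was at 14.1 to 40.1 CPM in calves and 89.6 to 282 CPM in steers. Its rise of 2.41 ± 0.44 passed (adjusted p = 0.00613), higher in 4 of 4 steers. The calpain genes CAPN1 and CAPN2 moved in opposite directions, at -1.12 ± 0.20 (adjusted p = 0.00566) and 0.92 ± 0.20 (adjusted p = 0.0138). The call of CAPN2 was lost with library size only (0.78) and without calf 1 (0.91).

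Genes that share recessive ichthyosis or lipid envelope synthesis with TGM1 were called lower in 3 of 13 tested and higher in none, beside 9.16% lower and 7.7% higher over all tested genes, with a median log2 change of -1.06. ELOVL4, a very long chain fatty acid elongase, was at 10.9 ± 8.78 CPM in calves and 0.389 ± 0.411 CPM in steers and fell by 4.75 ± 0.88 on the log2 scale (adjusted p = 0.00622). ASPRV1, a skin protease, had no count in steers and 1.46 to 34.5 CPM in calves, at least 160.2-fold lower, with calf 2 highest, and at least 41.5-fold lower without calf 2. The third called gene was CERS3, a ceramide synthase (8.13 and 0.23 CPM), named after its values were seen. Without calf 2 and steer 4, 7 genes of this list were called, all lower, beside 9.72% of all tested genes called lower in that setting. With the smooth muscle covariate 1 was called higher and 3 lower (median -0.56), beside 7.55% and 8.22% of all tested genes.

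Transcription factors of squamous differentiation, some of which are known to act on TGM1, were called lower in 3 of 21 tested genes and higher in none (median -0.43). Over all tested genes 9.16% were called lower and 16.9% either way, so this count is near the background. BARX2 fell from 211.4 ± 67.8 to 10.8 ± 9.12 CPM (log2 change -4.29 ± 0.58, adjusted p = 0.00141) and TFAP2C from 17.1 ± 4.95 to 1.74 ± 0.43 CPM (-3.30 ± 0.31, adjusted p = 0.000282). The third was GRHL2 (38.7 and 25.4 CPM), named after its values were seen, whose call was lost when any 1 of calves 1 to 4 or steers 1 to 3 was left out (-0.65 to -0.50). Its call was also lost with the smooth muscle covariate (-0.38), library size only (-0.72), no filter (-0.6), the replicate block (-0.62) and without calf 2 and steer 4 (-0.69). Without calf 2 and steer 4, 6 factors were called, all lower, beside 9.72% of all tested genes. With the smooth muscle covariate 2 were called higher and 2 lower (median -0.08), beside 7.55% and 8.22% of all tested genes. The single direction was thus not kept.

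Of 24 partners and matrix substrates of TGM2, 2 were called higher and 5 lower (median -0.49), beside 7.7% and 9.16% of all tested genes, so the count called higher is near the background. LTBP2, a matrix protein of the latent TGF-beta binding family, rose from 37.3 ± 12.1 to 103.2 ± 26.5 CPM (1.47 ± 0.27, adjusted p = 0.0065). COL1A1 and COL1A2, the chains of type I collagen, fell by 2.56 ± 0.38 and 2.02 ± 0.41 on the log2 scale (adjusted p = 0.00232 and 0.00888). The other 3 called lower were LTBP1, TGFB3 and VIM, named after their values were seen. The call of LTBP1 was lost when calf 2, calf 4, steer 1, steer 2 or steer 3 was left out (-1.88 to -1.49), and with the smooth muscle covariate (-1.53). FN1, fibronectin, was at 52.3 ± 23.0 and 189 ± 149.7 CPM with a log2 change of 1.85 ± 0.55 (adjusted p = 0.045). That call was lost when any 1 of calves 1 to 4, steer 2 or steer 3 was left out (1.18 to 2.07). It was also lost with the smooth muscle covariate (0.97), with the replicate block, with limma-voom and with library size only. Without calf 2 and steer 4, 11 genes of this list were called, 4 higher and 7 lower, beside 8.33% and 9.72% of all tested genes. Summed fibroblast markers were lower in all 4 steers than in any calf, and that list holds both collagens.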

How the data were processed

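The deposited file holds raw counts per gene name. Per the submitters' processing notes, reads were trimmed with Trimmomatic 0.39, aligned with STAR 2.7.11a and counted with featureCounts 2.0.2. DESeq2 1.42.0 is named there too. Per the file headers, the authors counted over whole transcript spans, introns included, joined by gene name, with no strand option and with both mates of a pair counted. No transglutaminase span overlaps another gene. Genome build and annotation: not given in the sources used here.

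Counts were filtered with filterByExpr (16326 genes left), TMM-scaled and compared in edgeR 4.0.16 (R 4.3.3) by the quasi-likelihood F test with robust dispersion and Benjamini-Hochberg adjustment over all tested genes. SE was taken as the absolute log2 change over the root of F. Within each group no library was a repeat of another (smallest chi-square per degree of freedom 113). The procedure was tested on simulated data. Ratios of counts plus 1 were compared in scipy 1.17.1. Shares were planned per coding length, and the counted span was used instead. Names matched an ARS-UCD2.0 gene table for 27567 symbols, used for chromosome numbers. Members, lists and tests were chosen with earlier results of these data known. Named genes were all members, F13A1 and EPB42, up to 2 called genes per list and direction with at least 10 CPM, 3 like genes per member, neighbours and tissue markers. Alternatives were 3 scalings, 2 filters, no robust dispersion, DESeq2, limma-voom 3.58.1, a replicate block, a smooth muscle covariate, other added counts, another length and each library left out. Leaving out calf 2 and steer 4 was added after seeing the data.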

Additional observations from a re-analysis of the deposited data

How the results depend on the processing

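TGM5 kept its direction and its call in all 19 alternatives, at log2 changes of 4.58 to 5.53 (adjusted p up to 0.00237). TGM1 stayed negative in all 19 and passed without steer 4 and, in a setting chosen after seeing the data, without calf 2 and steer 4 (-2.51). With 1 animal left out it ran from -2.22 to -1.03. With the smooth muscle covariate TGM2 and TGM3 turned to -0.16 and 0.33. The count of genes called higher, 1257, was 835 with library size only, 1956 with DESeq2, 785 with the replicate block and 705 to 1473 with 1 animal left out. That of genes called lower, 1495, was 2254 with DESeq2. Library size only gave a median log2 change of -0.07 against 0.04, and 1555 genes were then called lower. The replicate numbers do not pair the animals (correlations of same-numbered deviations 0.199, 0.083, -0.095 and -0.266). With the replicate block TGM5 was 5.07 and TGM1 -1.76, no call of a transglutaminase or a ratio changed, and of the listed genes with a test above and DES, FN1 (1.64), GRHL2 (-0.62) and DES (2.96) lost their calls. Here sign flips of 4 pairs cannot give a p below 0.125. Ratios of TGM3 to TGM7 ran from -1.35 to 1.86 and of TGM1 to TGM7 from -1.87 to 0.28 with 1 animal left out; the cause was not tested. With 4 against 3 animals no ratio can reach a p below 0.0571. Shares in CPM without length were 61.7% (TGM1, calves), 35.1% (TGM1, steers), 31.88% (TGM3, calves), 31.93% (TGM3, steers) and 0.307% (TGM5, calves). Without calf 2 and steer 4, lists had 7 (ichthyosis), 6 (factors) and 11 (TGM2 partners) called genes. In that setting 8.33% of all tested genes were called higher and 9.72% lower. Depth limits TGM6, TGM7 and EPB42.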

Other observations

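Calf 2 stood apart in members of the family, in a few late keratinocyte genes and in summed fibroblast markers. It had the lowest TGM1 (311.6 CPM) and TGM3 (26.9 CPM) of the calves. LOR was at 160 CPM and ASPRV1 at 34.5 CPM in calf 2, against at most 7.83 and 4.75 CPM in the other calves. The summed epidermal suprabasal markers other than LOR were at 3.51 CPM in calf 2, below the 4.64 to 6.02 CPM of the other calves. The summed mucosal suprabasal markers were lowest of the calves in the same animal (36260 CPM against 70420 to 88920 CPM). Summed fibroblast markers were highest of the calves in calf 2 (4802 CPM against 1650 to 2759 CPM). Its summed endothelial markers, at 407.9 CPM, lay within the 261 to 547.3 CPM of the calves. Calf 2 also had the highest TMM factor, 1.267.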
